A study of Mus musculus with 6 samples.

Results

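The soleus of hindlimb-suspended mice that also received electroacupuncture was compared with the soleus of mice that were suspended alone. The comparison takes 4 of the 6 arrays of the study: the 2 labelled as suspension with electroacupuncture and the 2 labelled as hindlimb suspension. The other 2 arrays, of control soleus, entered only the estimate of the variance. Every sample was from male C57BL/6 mice 8 weeks of age, with no genetic change named, and both groups compared share the suspension. Every value below is a log2 signal from Affymetrix Mouse Gene 1.0 ST arrays, and a difference is the electroacupuncture mean minus the suspension mean, with its standard error (SE) from limma. The labels give neither the duration of suspension, nor the acupuncture points, the current, the schedule or the hour of tissue collection. Nor is it said whether duplicate arrays stand for separate animals, so p-values measure only the spread between these samples, which may be technical.

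The soleus is an antigravity muscle of the lower leg, made largely of slow and oxidative fibres in the mouse. Lifting the hind limbs removes its load, and the fibres lose protein through ubiquitin ligases that mark contractile proteins for the proteasome. Electroacupuncture sends a pulsed current between needles and can make muscle contract. Load and contraction act on genes of the fibre itself and on the tendon cells, fibroblasts, vessels and immune cells around it. In bulk tissue, fewer cells of a type and less RNA per cell cannot be told apart.

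The arrays were alike in overall signal, with medians from 4.55 to 4.61 and mean rank correlations with the other arrays from 0.9825 to 0.9881. Of 10 soleus muscle markers, 10 lay above the level of the olfactory receptor genes, taken as background (95th percentile 3.50), while 4 of 8 markers of other organs (Alb, Ins2, Umod and Sftpc) lay at or below it. In limma, 0 of 19938 genes (0%) passed an adjusted p under 0.05, and the smallest adjusted p-values were 0.0601 for Chad and 0.12 for Ccl17. At an unadjusted p under 0.05, 312 genes lay higher (1.56%) and 300 lower (1.50%) in the electroacupuncture group, 612 in all against 997 expected by chance. These counts depend on the control arrays in the variance, and with the compared groups fitted alone they were 481 and 463. The shares of 1.56% and 1.50% are the background for every count of list members at that p in the main fit. Exact permutation of 2 arrays against 2 cannot give a two-sided p below 0.333. Both electroacupuncture arrays lay above both suspension arrays for 3071 genes (15.4%) and below both for 3419 (17.1%). With a difference of at least 1.5-fold added, 112 genes (0.562%) lay apart on the higher side and 52 (0.261%) on the lower. At least 2-fold apart without overlap were 15 genes on the higher side and 2, Arntl and Ppp1r27, on the lower. The differences over all genes had a median of -0.006, and 95% of them ran from -0.36 to 0.393. The words higher and lower therefore describe these 4 arrays, and no single gene is called changed.

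**Figure D1:**
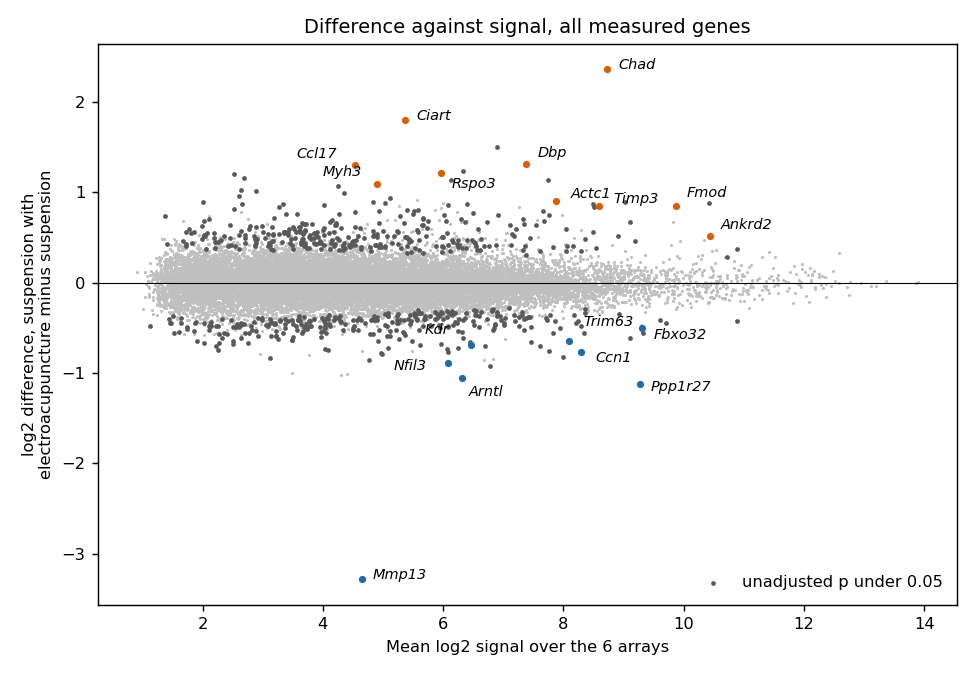
Log2 difference between the electroacupuncture and the suspension mean (vertical axis) against the mean log2 signal (horizontal axis), 1 point for each of 19938 genes. Chad lies farthest above 0 at 2.36, and the widest difference below 0, Mmp13 at -3.29, rests on 1 suspension array.

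Genes of the circadian clock lay apart between the groups in opposite directions. In the clock, BMAL1 (gene Arntl) and CLOCK bind E-boxes and drive the Per, Cry, Rev-erb, Ciart and Dbp genes, whose products then repress BMAL1 and CLOCK or act on D-boxes. Rev-erb and ROR proteins compete at another sequence, the ROR element, in genes such as Arntl and Nfil3. Promoters are shown for 4 clock genes: Ciart and Per3, higher with electroacupuncture and with more than 1 match, and Arntl and Nfil3, the lowest, each with a ROR element. They come from RefSeq (GRCm38.p6), 250 bases before to 50 bases after a gene's start, 5′ to 3′ on the strand of the gene. Capitals mark an E-box (CACGTG), a D-box (TTANGTAA) or a ROR element (TAGGTCA), searched on both strands, and none of these overlap each other. Ciart (chr3:95882179-95882478, minus strand) has 3 E-boxes, Per3 (chr4:151044616-151044915, minus strand) has 2 D-boxes, and Arntl (chr7:113207261-113207560, plus strand) and Nfil3 (chr13:52980990-52981289, minus strand) have 1 ROR element each, in Nfil3 on the opposite strand.
Ciart: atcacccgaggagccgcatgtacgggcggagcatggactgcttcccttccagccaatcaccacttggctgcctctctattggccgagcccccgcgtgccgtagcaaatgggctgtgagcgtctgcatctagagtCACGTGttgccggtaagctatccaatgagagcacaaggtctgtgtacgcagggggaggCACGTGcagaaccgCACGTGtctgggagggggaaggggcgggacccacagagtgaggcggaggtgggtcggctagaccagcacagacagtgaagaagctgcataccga
Per3: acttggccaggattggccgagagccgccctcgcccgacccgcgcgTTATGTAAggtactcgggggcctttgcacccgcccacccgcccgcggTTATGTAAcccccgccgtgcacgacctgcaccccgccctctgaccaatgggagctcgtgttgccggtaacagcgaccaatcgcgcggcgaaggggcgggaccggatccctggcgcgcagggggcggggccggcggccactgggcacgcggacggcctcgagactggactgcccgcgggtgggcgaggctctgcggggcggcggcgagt
Arntl: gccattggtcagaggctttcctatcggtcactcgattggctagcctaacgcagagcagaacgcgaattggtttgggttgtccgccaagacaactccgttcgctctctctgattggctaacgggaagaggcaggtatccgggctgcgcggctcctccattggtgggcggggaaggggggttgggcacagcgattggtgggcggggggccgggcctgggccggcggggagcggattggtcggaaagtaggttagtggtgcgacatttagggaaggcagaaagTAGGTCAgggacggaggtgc
Nfil3: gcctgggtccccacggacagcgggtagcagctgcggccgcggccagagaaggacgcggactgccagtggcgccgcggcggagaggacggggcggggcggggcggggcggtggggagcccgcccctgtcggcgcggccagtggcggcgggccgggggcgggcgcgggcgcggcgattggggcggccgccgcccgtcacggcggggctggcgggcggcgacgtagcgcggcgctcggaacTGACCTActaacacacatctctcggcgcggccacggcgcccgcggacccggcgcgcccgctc

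Of 18 measured clock genes, 16 had promoters in the RefSeq table, in 22 windows. Of the 10 genes listed as driven through E-boxes or D-boxes, 4 had an E-box, 1 a D-box and 0 a ROR element. Of the 6 activators and ROR-element genes, 2 had a ROR element, 1 (Cry1) an E-box and 1 (Rorb) a D-box. The other window of Arntl (chr7:113207215-113207514) held none of the 3 motifs. Over all 32851 windows of 300 bases, 7.15% held an E-box, 2.32% a D-box and 2.61% a ROR element. The windows of Dbp and Hlf held none of the 3 motifs. A match describes letters in a window and does not show binding.

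Among 12 clock genes listed as driven through E-boxes or D-boxes, 9 (75%) had both electroacupuncture arrays above both suspension arrays and 0 had both below. Over all genes these shares were 15.4% and 17.1%. The lists were written with earlier results of these data known. Cry1, whose promoter window held an E-box, was placed in the other list and lay lower without overlap, so the 0 depends on that choice. The median difference of the 12 listed was 0.484, against -0.006 over all genes. Of all genes 1.56% were higher at an unadjusted p under 0.05. Of the 12 listed, 7 were past that p, all higher. Without the second electroacupuncture array that number was 4. The labels do not give the hour at which the muscles were taken, and its part in the clock values was not tested. Ciart encodes a repressor of CLOCK and BMAL1, and its signal was 4.77 and 4.99 on the suspension arrays and 6.81 and 6.55 on the electroacupuncture arrays. The difference was 1.80 ± 0.40, or 3.49-fold, with an adjusted p of 1.00. The groups lay well apart, but the 2 control arrays differed by 1.56 for this gene, which widens its standard error. With the compared groups fitted alone the standard error was 0.15 and the adjusted p 0.0467. Ciart did not pass with array weights, a robust variance prior, the other normalizations or a replicate block.

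Dbp, a D-box activator, measured 7.11 and 6.91 under suspension and 8.31 and 8.34 with electroacupuncture. It differed by 1.31 ± 0.17, which is 2.48-fold (adjusted p = 0.174). Its near relatives followed at smaller sizes. Hlf lay at 5.31 and 5.25 against 5.73 and 5.82 (0.50 ± 0.15), and Tef at 7.09 and 7.06 against 7.43 and 7.47 (0.38 ± 0.17). The groups of all 3 D-box activators did not overlap.

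The Period genes encode the repressors that close the loop. Per2 read 5.27 and 5.0 under suspension and 5.77 and 6.11 with electroacupuncture (0.81 ± 0.17, adjusted p = 0.944). Per3 read 5.89 and 6.28 against 6.77 on both arrays (0.68 ± 0.17), and Per1 7.53 and 6.88 against 7.68 and 8.14 (0.71 ± 0.22). All 3 separated the groups, with the narrowest gap in Per1. Bhlhe41, another repressor at E-boxes, differed by 0.47 ± 0.21, and the Rev-erb beta gene Nr1d2 by 0.30 ± 0.14, both without overlap. Bhlhe40 (0.06 ± 0.15), Cry2 (0.02 ± 0.26) and the Rev-erb alpha gene Nr1d1 (-0.01 ± 0.20) overlapped between groups, and the sign of each turned when single arrays were left out.

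Most members of the list of activators and ROR-element genes lay on the other side. Arntl measured 6.68 and 6.66 on the suspension arrays and 5.62 and 5.61 on the electroacupuncture arrays. The difference was -1.05 ± 0.14, 2.08-fold lower (adjusted p = 0.204). Within each group the 2 arrays were nearly identical. Nfil3, a repressor at D-boxes, had 6.28 and 6.29 against 5.24 and 5.57 (-0.88 ± 0.18, adjusted p = 0.687). Cry1, a late repressor of the loop, had 5.62 and 5.73 against 5.26 and 5.39 (-0.35 ± 0.15). It is not an activator, and its promoter window held an E-box and no ROR element, so its place in this list is a choice. The receptor gene Rora differed by -0.18 ± 0.13 without overlap. Clock overlapped (-0.12 ± 0.18), with a difference of 0.0029 without the second electroacupuncture array. Rorb, at background, was the 1 member of 6 on the higher side (0.22 ± 0.17). The list had a median of -0.265, with 3 members, Cry1 among them, lower at an unadjusted p under 0.05, as were 1.50% of all genes. Lower without overlap were 4 of 6 members (66.7%), again with Cry1, against 17.1% of all genes.

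**Figure D2:**
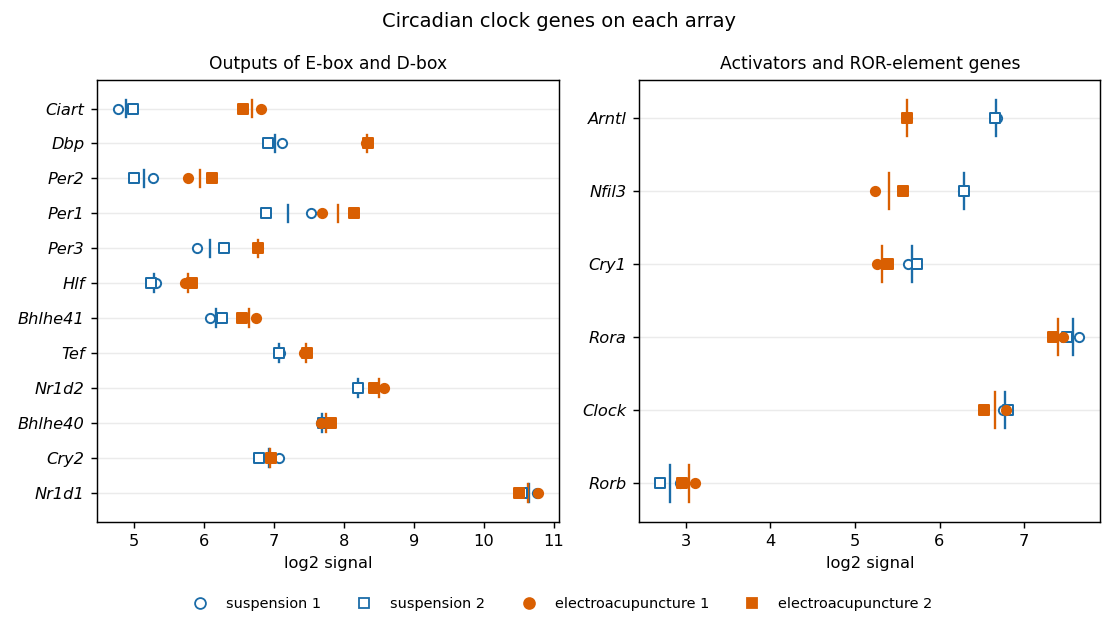
Log2 signal of the clock genes on each of the 4 arrays compared, 1 row for each gene, with suspension and electroacupuncture arrays as points in different colours. Dbp and Ciart lie to the right with electroacupuncture and Arntl and Nfil3 to the left, with no overlap of the groups.

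Tendon and matrix genes held the single largest separation. Chad encodes chondroadherin, a leucine-rich protein of cartilage and tendon that binds cells and collagen. Its signal was 6.87 and 7.36 on the suspension arrays and 9.20 and 9.75 with electroacupuncture, 2.36 ± 0.23 or 5.14-fold higher (adjusted p = 0.0601). It was the gene nearest to the threshold. The adjusted p was 0.0415 with a robust variance prior, 0.0208 with array weights and 0.0467 with the compared groups fitted alone. Chad did not pass with a variance prior without a trend, the signal filter, the other normalizations, the other cluster choices or a replicate block. In each of those settings 0 genes passed.

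Other genes of mature tendon lay higher too. Tnmd, the membrane protein tenomodulin of tendon cells, read 5.92 and 6.10 against 6.62 and 6.90 (0.75 ± 0.15, adjusted p = 0.687). Fmod, a small proteoglycan that guides collagen fibril assembly, read 9.44 and 9.13 against 10.02 and 10.25 (0.85 ± 0.18). Angptl7, a secreted angiopoietin-like protein, read 7.66 and 6.65 against 8.20 and 8.38 (1.14 ± 0.29, 2.20-fold). None of these overlapped between the groups. Cilp2 (0.69 ± 0.16), the proteoglycan gene Ogn (0.59 ± 0.19), the tendon transcription factor gene Mkx (0.43 ± 0.19) and decorin, Dcn (0.28 ± 0.14), were also higher on both arrays. Scx, the transcription factor of tendon progenitors, lay lower on both, with 5.90 and 5.64 against 5.45 and 5.42 (-0.34 ± 0.16). Kera overlapped (0.20 ± 0.19).

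Over all 20 tendon and fibroblast markers, 9 (45.0%) were higher without overlap and 2 (10.0%) lower, against 15.4% and 17.1% of all genes. Of the markers, 7 had an unadjusted p under 0.05, all higher, against 1.56% of all genes. Their median was 0.24, but it was -0.037 without the second suspension array, where 6 members were higher and 4 lower at that p. Without the first suspension array 11 were higher and the median was 0.52. The summed linear signal of the markers was 7029 and 5056 on the suspension arrays and 7971 and 8055 on the electroacupuncture arrays, with every marker above background. How much tendon or fascia came with each muscle is not in the labels, and its part in the result was not tested.

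Several matrix genes outside that list were among the largest separations at or above the median signal. Timp3, a matrix-bound inhibitor of metalloproteinases, had 8.27 and 8.21 under suspension and 9.0 and 9.17 with electroacupuncture (0.85 ± 0.13, adjusted p = 0.337). Prelp, a proteoglycan of basement membranes and cartilage, had 8.05 and 7.83 against 8.70 and 8.93 (0.88 ± 0.16). Mfap4, a protein of elastic microfibrils, had 5.93 and 5.62 against 6.56 and 6.74 (0.87 ± 0.15). In these 3 genes the arrays of a group lay closer to each other than to either array of the other group. Emilin2 (0.88 ± 0.16) and Fibin (0.93 ± 0.16), both secreted, and the thrombospondin genes Thbs1 (0.74 ± 0.20) and Thbs2 (0.51 ± 0.21) were likewise higher without overlap. Rspo3, an enhancer of Wnt signalling, had 5.51 and 5.46 against 6.22 and 7.17 (1.21 ± 0.26), with the electroacupuncture arrays apart from each other. On the lower side stood Ccn1, a matricellular protein gene induced by load and by YAP. It measured 8.73 and 8.61 against 7.90 and 7.92 (-0.76 ± 0.12, adjusted p = 0.367).

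The collagen chains showed no common direction over the 4 arrays. Of 20 measured chains, 3 lay higher and 3 lower without overlap (15% each), near the 15.4% and 17.1% of all genes. The median of the chains was -0.061. Col8a1 (0.80 ± 0.24) and Col12a1 (0.47 ± 0.17), chains of short and of fibril-associated collagens, had an unadjusted p under 0.05. Col4a2, a basement membrane chain, lay lower on both arrays (-0.35 ± 0.16). The direction of the list turned with the suspension array that was left out. Without the first the median was 0.078, with 6 chains higher and 0 lower at an unadjusted p under 0.05, and without the second it was -0.17, with 0 higher and 7 lower. Without the second electroacupuncture array 0 chains stood past that p.

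For the remodelling genes, the first suspension array stood apart and the comparison rests on it. Mmp13, a collagenase, read 10.02 and 4.09 on the suspension arrays and 4.29 and 3.24 with electroacupuncture. The fitted difference of -3.29 ± 1.44 was -0.32 without the first suspension array and -6.25 without the second (adjusted p = 0.00695, the one gene to pass in that fit). Fibronectin, Fn1, read 10.85 and 7.92 against 9.21 and 8.63, so that both electroacupuncture arrays lay between the suspension arrays. Its difference was -0.47 ± 0.72, and 1.00 without the first suspension array. Timp1, Postn, Mmp9, Mmp14 and Col1a1 were likewise highest on the first suspension array, and the sign of each turned in some fit that left an array out. Cxcl14, a chemokine, was highest there as well (8.03 against 6.56), with 6.51 and 6.39 on the electroacupuncture arrays. In all, 142 genes differed at least 2-fold between the suspension arrays, 125 of them higher on the first. For 104 of those 125, both electroacupuncture arrays lay between the suspension arrays. Between the electroacupuncture arrays 60 genes differed at least 2-fold, 28 higher on the first and 32 on the second.

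**Figure D3:**
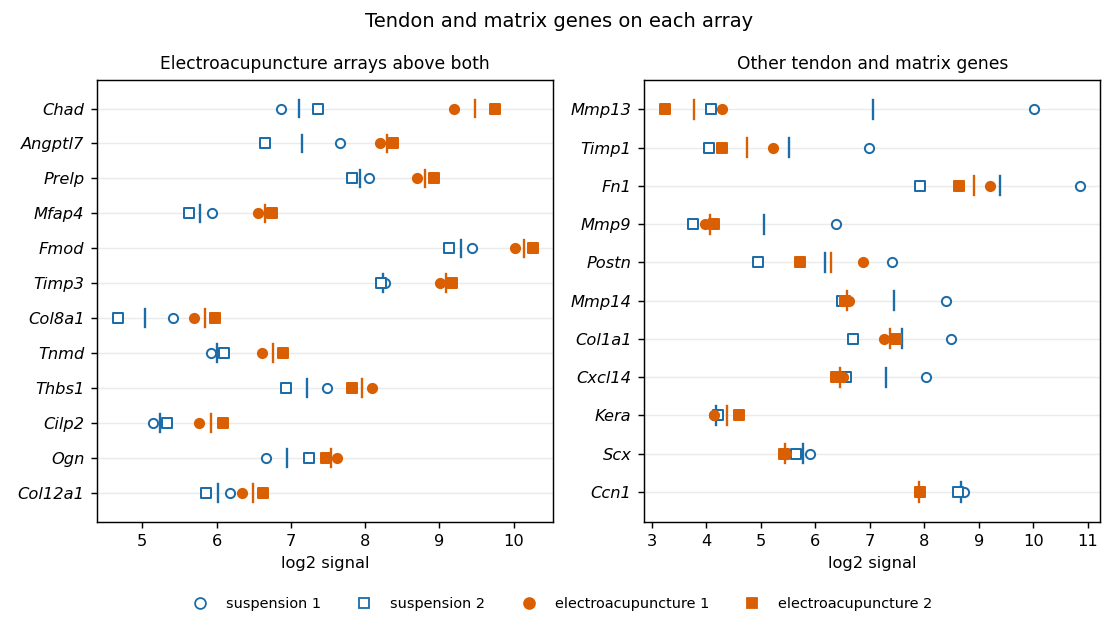
Log2 signal of tendon and matrix genes on the 4 arrays, 1 row for each gene. In the left panel the groups are apart for Chad, Tnmd and Fmod, and in the right panel a single suspension array holds the highest value of Mmp13 (10.02) and Fn1 (10.85).

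Within the muscle fibre, sarcomere genes of embryonic and regenerating muscle lay higher. Myh3, the embryonic myosin heavy chain, measured 4.38 and 4.50 under suspension and 5.42 and 5.65 with electroacupuncture (1.1 ± 0.16, 2.14-fold, adjusted p = 0.269). Actc1, the cardiac actin that fetal and regenerating muscle also uses, measured 7.42 and 7.32 against 8.38 and 8.17 (0.90 ± 0.15, adjusted p = 0.367). Both separated the groups by more than the spread of either. Cardiac troponin T, Tnnt2, had 6.54 and 6.40 against 7.20 and 6.70 (0.48 ± 0.18), and the embryonic light chain Myl4 had 7.90 and 7.83 against 8.84 and 8.08 (0.59 ± 0.24). In these the first electroacupuncture array was the higher. Mymk, which fuses myoblasts, read 6.65 on that array and 5.01, 5.13 and 5.14 on the others, and Myog, Ankrd1 and Mustn1 were also high on it alone. The perinatal myosin gene Myh8 overlapped (-0.12 ± 0.20). In the list of 14, 5 members (35.7%) lay higher and 0 lower without overlap, against 15.4% and 17.1% of all genes. The list had a median of 0.402, with 4 members higher at an unadjusted p under 0.05, as were 1.56% of all genes. The median was 0.028 without the first electroacupuncture array, and the 4 became 2 without the second suspension array and 7 without the second electroacupuncture array.

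Stretch-responsive genes of the Z-disc showed a like tilt. Ankrd2, a titin-associated protein of slow fibres, had 9.76 and 9.74 against 10.34 and 10.20 (0.52 ± 0.16). Csrp3, the muscle LIM protein, had 8.58 and 7.72 against 8.59 and 9.5 (0.90 ± 0.36), so that the groups touch. Xirp2, an actin-binding protein of the intercalated and Z-disc regions, had 9.52 and 9.93 against 10.31 and 10.06 (0.46 ± 0.22). Of 16 such genes 7 (43.8%) were higher and 0 lower without overlap, against 15.4% and 17.1% of all genes. The median of the 16 was 0.18, and 0.10 without the first electroacupuncture array. Slow-fibre contractile genes (14) had a median of 0.18, with 2 members, Ankrd2 and Csrp3, at an unadjusted p under 0.05. Both genes are counted among the 16 stretch-responsive genes too, and they are the 2 members past that p there. The lists are therefore not independent. The median of the 14 was 0.405 without the first electroacupuncture array, 0.011 without the second and 0.118 without the first suspension array. Fast-fibre contractile genes (16) had a median of -0.056, with 1 member past it, the light chain kinase gene Mylk2 (10.20 and 10.35 against 9.98 and 9.74, -0.41 ± 0.15). In calcium handling the median was -0.084, and 0 of 25 genes had an unadjusted p under 0.05. Without overlap 0 lay higher and 8 (32.0%) lower, against 15.4% and 17.1% of all genes. Among the 8 was the release channel Ryr1 (11.47 on both suspension arrays against 11.18 and 11.21, -0.28 ± 0.12).

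**Figure D4:**
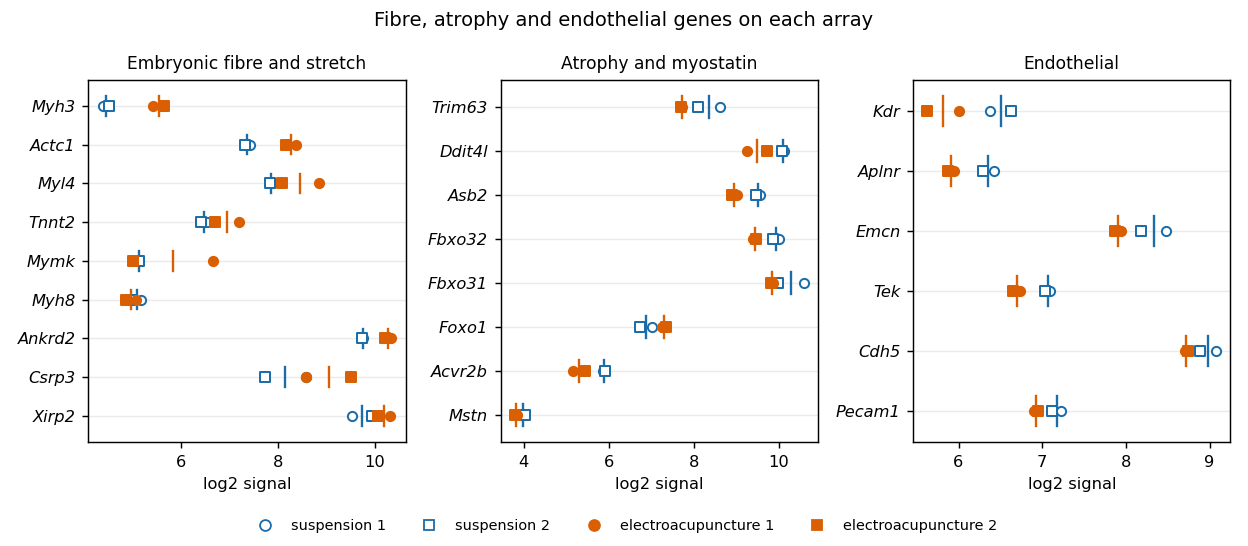
Log2 signal of fibre, atrophy and endothelial genes (3 panels) on the 4 arrays, 1 row for each gene. Myh3 and Actc1 lie higher and Trim63, Fbxo32 and Asb2 lower with electroacupuncture, and for none of these do the groups overlap.

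The atrophy genes were divided. Trim63, the ubiquitin ligase MuRF1 that marks myosin, measured 8.61 and 8.10 under suspension and 7.73 and 7.69 with electroacupuncture (-0.64 ± 0.18). Fbxo32, the ligase atrogin-1, measured 9.99 and 9.86 against 9.39 and 9.47 (-0.50 ± 0.15), and Asb2, another muscle ligase subunit, 9.56 and 9.46 against 9.01 and 8.90 (-0.56 ± 0.12). The groups of these 3 did not overlap, and Asb2 had the lowest adjusted p of them, 0.975. Ddit4l, an inhibitor of mTOR signalling (-0.61 ± 0.18), and the ligase gene Fbxo31 (-0.45 ± 0.19) lay lower as well. Foxo1, which encodes a transcription factor of the ligase genes, lay higher, with 7.01 and 6.74 against 7.25 and 7.33 (0.42 ± 0.17).

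Without overlap, 7 (29.2%) of the 24 members of the atrophy list were lower and 5 (20.8%) higher, against 17.1% and 15.4% of all genes. At an unadjusted p under 0.05, 5 members were lower and 1 higher, against 1.50% and 1.56% of all genes. The median, 0.038, was near that of all genes. The 5 became 2 without the first suspension array or the first electroacupuncture array and 8 without the second suspension array. The 32 proteasome subunits had a median of -0.056 and 0 members past that p in either direction. In the myostatin and activin list, the receptor gene Acvr2b read 5.85 and 5.90 against 5.17 and 5.43 (-0.58 ± 0.18) and Ltbp3 differed by -0.39 ± 0.15. Myostatin itself, Mstn, differed by -0.17 ± 0.16, with signals of 3.94 and 4.02 against 3.83 and 3.79. In the insulin, IGF and mTOR list, Irs1 (-0.41 ± 0.14) and Sesn2 (-0.39 ± 0.15) lay lower and Igfbp6 (0.42 ± 0.16) higher. Without overlap 7 of 23 members of that list (30.4%) lay lower and 2 (8.7%) higher. In the myostatin and activin list 6 of 23 (26.1%) lay lower and 3 (13.0%) higher, against 17.1% and 15.4% of all genes. The list medians were -0.058 for insulin, IGF and mTOR and -0.036 for myostatin and activin.

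Endothelial genes lay lower as a list. Kdr, the main VEGF receptor of endothelium, read 6.37 and 6.63 on the suspension arrays and 6.00 and 5.63 on the electroacupuncture arrays (-0.69 ± 0.17). Emcn, the sialomucin of capillaries and veins, read 8.48 and 8.18 against 7.94 and 7.86 (-0.43 ± 0.14). The apelin receptor gene Aplnr read 6.42 and 6.29 against 5.95 and 5.87 (-0.44 ± 0.14). In each gene the lowest suspension array lay above the highest electroacupuncture array. Tek, the angiopoietin receptor, differed by -0.37 ± 0.13, and the junction genes Cdh5 and Pecam1 by -0.26 ± 0.16 and -0.24 ± 0.14. Of 17 genes 10 (58.8%) were lower and 0 higher without overlap, against 17.1% and 15.4% of all genes. The list had a median of -0.21. The summed linear signal of the list was 2663 and 2446 under suspension and 2166 and 2175 with electroacupuncture. At an unadjusted p under 0.05 stood 4 genes, and 1 without the first suspension array or without the second electroacupuncture array. Over all genes 1.50% lay lower at that p. Whether the lower endothelial values reflect the number of endothelial cells was not tested.

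Most markers of fat cells lay higher. Of 14 adipocyte markers, 9 (64.3%) lay higher and 1 (7.14%) lower without overlap, against 15.4% and 17.1% of all genes. The markers had a median of 0.375 (0.206 without the second suspension array), and 0 had an unadjusted p under 0.05 in limma. Adipoq, the adipokine adiponectin, read 5.71 and 5.41 against 6.28 and 6.15, yet its standard error was 0.72 because the control arrays differed by 2.99. Cidec (0.78 ± 0.45), a lipid droplet protein gene, and Retn (0.70 ± 0.40), the resistin gene, also had control arrays far apart (1.68 and 1.57). The summed signal of the adipocyte markers was 2959 and 2652 under suspension and 3378 and 4329 with electroacupuncture, and Ucp1 lay at background.

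Of 22 macrophage and leukocyte markers 4 (18.2%) were higher and 1 (4.55%) lower without overlap, a share on the higher side near the 15.4% of all genes, with sums of 1494 and 882 against 1904 and 1243 and with Cd79a, Ly6g and S100a8 at background. Their median of 0.303 was 0.725 without the first suspension array and 0.007 without the second. Cybb, the phagocyte oxidase subunit, was the 1 member at an unadjusted p under 0.05 (5.73 and 5.36 against 6.55 and 5.81, 0.63 ± 0.27). That number was 10 without the first suspension array, 5 without the second electroacupuncture array and 0 without either of the other arrays. Ccl17, a chemokine that attracts T cells, stood out among 28 cytokines and chemokines. It measured 4.19 and 4.05 against 5.44 and 5.39, 1.3 ± 0.15 or 2.46-fold higher (adjusted p = 0.12), and the arrays of each group lay close together. Wfdc17, a secreted protein of activated macrophages, had 6.47 and 5.69 against 7.70 and 6.94 (1.24 ± 0.31), and the receptor subunit gene Csf2rb2 had 4.75 and 4.22 against 5.22 and 5.54 (0.90 ± 0.20). The part of leukocyte number in these values was not tested.

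In the metabolic lists no member stood out. The respiratory chain (39 genes), fatty acid (26) and glycolysis (19) lists had medians of -0.06, -0.085 and -0.084 and 0 members at an unadjusted p under 0.05. In the respiratory chain 13 genes (33.3%) lay lower and 3 (7.69%) higher without overlap, against 17.1% and 15.4% of all genes. Without the first electroacupuncture array these 3 medians were -0.005, -0.013 and 0.001, and without the second -0.156, -0.182 and -0.17. In the cholesterol and lipid list, Mvd (-0.73 ± 0.17), an enzyme of the mevalonate pathway, Insig1 (-0.50 ± 0.15), the sterol sensor partner, and Scd2 (-0.41 ± 0.15), a desaturase, lay lower without overlap. Of its 21 members 6 (28.6%) lay lower and 1 (4.76%) higher without overlap, against 17.1% and 15.4% of all genes. The list median was -0.148, and 8 members had a difference above 0, the largest 0.64. The 3 members of that list at an unadjusted p under 0.05 became 1 without the first suspension array and 2 without the second electroacupuncture array. Of 22 immediate early genes 5 (22.7%) lay lower and 2 (9.09%) higher without overlap, against 17.1% and 15.4% of all genes. At an unadjusted p under 0.05, 3 lay lower, namely Nr4a1 (-0.56 ± 0.21), Jund (-0.47 ± 0.16) and Fosb (-0.56 ± 0.22), and 0 higher. The 3 became 0 without the first suspension or the first electroacupuncture array, 5 without the second suspension array and 2 without the second electroacupuncture array. The median of that list, -0.122, was 0.006 without the first suspension array and -0.276 without the second. Of 18 glucocorticoid-induced genes 3 (16.7%) lay higher and 1 (5.56%) lower without overlap, the higher share near the 15.4% of all genes. The median of the 18 was 0.079. At an unadjusted p under 0.05, where 1.56% of all genes lay higher, 3 members lay higher. They were Tsc22d3 (7.59 and 7.25 against 7.78 and 8.43, 0.69 ± 0.21), Zbtb16 (0.51 ± 0.19) and Per1, which is also a clock gene. The 3 became 1 without the second array of either group, and without the second suspension array 3 members lay lower. The median was 0.363 without the first and -0.081 without the second suspension array, and 0.231 without the first and -0.018 without the second electroacupuncture array.

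**Figure D5:**
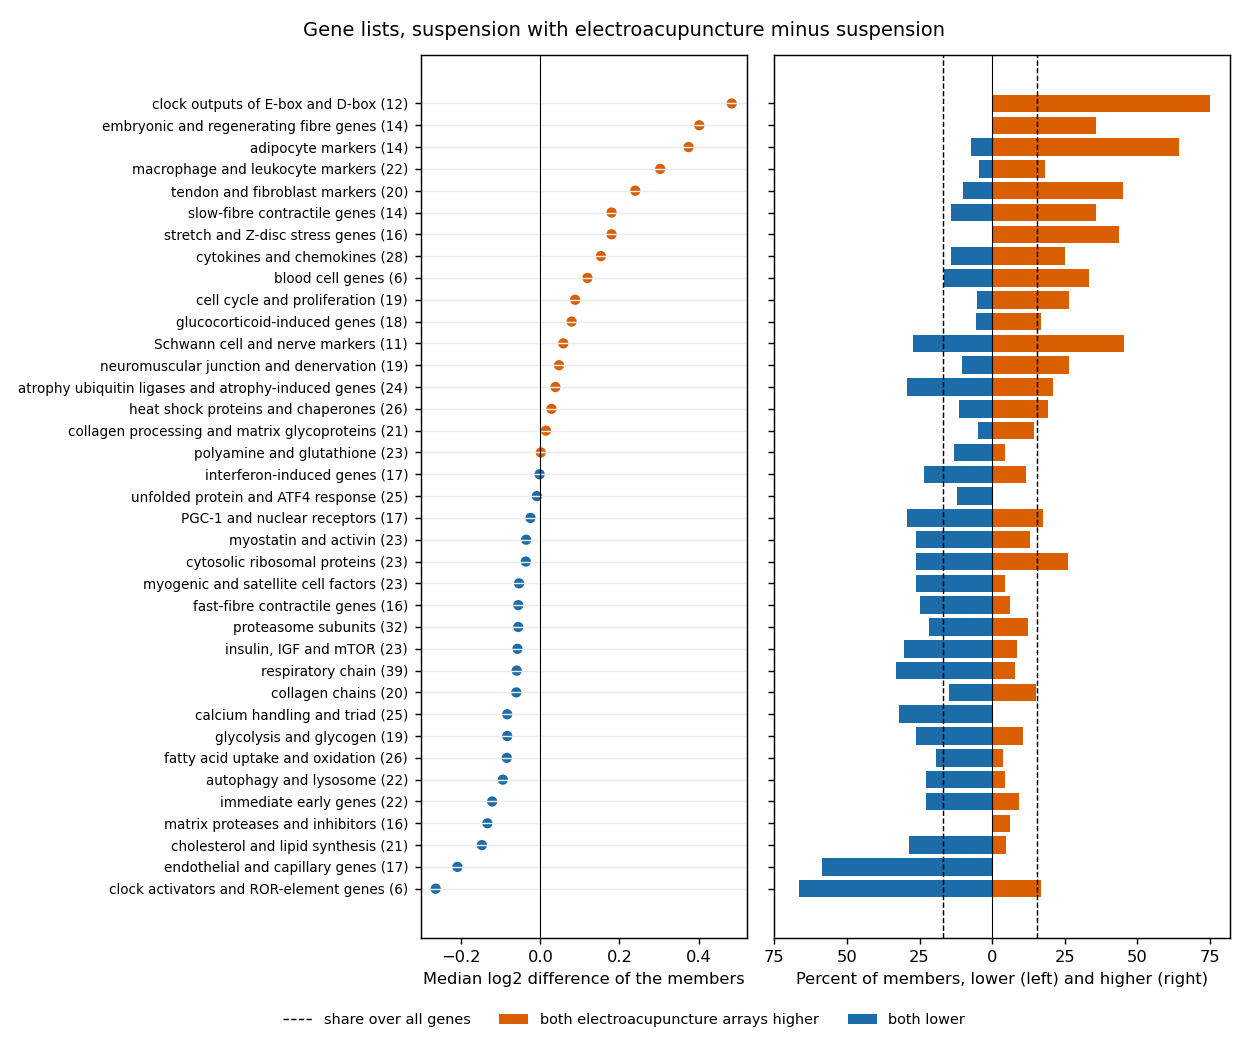
Median log2 difference of each of 37 gene lists (left) and the percent of its members with both electroacupuncture arrays above or below both suspension arrays (right), with the number measured in brackets. Dashed lines mark the shares over all genes, 15.4% higher and 17.1% lower, and the clock lists lie at both ends.

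Outside the lists, the widest separations on the lower side at or above the median signal included several membrane and signalling genes. Ppp1r27, a regulatory subunit of protein phosphatase, had 9.14 and 9.41 against 7.94 and 8.37 (-1.12 ± 0.30, 2.18-fold lower), with control arrays 1.06 apart. Snai3, a zinc finger repressor gene expressed in muscle, had 7.36 and 7.28 against 6.28 and 6.52 (-0.92 ± 0.22). Fzd9, a Wnt receptor, had 8.37 and 8.14 against 7.66 and 7.20 (-0.83 ± 0.19). All lay apart by more than the spread of their duplicates. Slc16a9, a carrier of the monocarboxylate family, differed by -0.77 ± 0.13 (adjusted p = 0.471), the mitochondrial carrier gene Slc25a36 by -0.76 ± 0.18, and Rflnb and Lrrc30 by -0.70 each. Tmem171 (-0.86), Mettl11b (-0.79), the pseudogene Mfsd4b3-ps (-0.78) and Stxbp4 (-0.73) completed the 15 genes named by size on that side. Map3k7cl (0.86 ± 0.36) was the remaining one of the 15 named by size on the higher side.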

How the data were processed

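Total RNA of mouse soleus was extracted with Trizol, labelled with biotin and hybridized in duplicate, per the labels. The deposited values are log2 signals that the authors computed by RMA in Affymetrix Expression Console, per the submitters' processing notes. Versions and a genome build are not given in the sources used here. RMA equalizes the distributions of the arrays, so a shift of all genes cannot be seen.

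Of 35556 transcript clusters, 21789 had 1 gene symbol and were used (1621 had several, 12146 none). For 999 genes with several clusters the one with the highest mean stood for the gene, giving 19938 genes, and none was dropped for low signal. Of the clusters used, 21698 matched RefSeq by Entrez ID and 0 symbols differed. The arrays were grouped by their titles and fitted with limma 3.58.1 (R 4.3.3, lmFit and eBayes with a variance trend) as 3 group means over 6 arrays. This left 3 residual degrees of freedom, and the prior added 5.88. The Benjamini-Hochberg adjustment ran over all genes, with a threshold of 0.05. The procedure was tested on simulated data. The number of arrays limits the precision, and the median standard error was 0.173.

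Gene lists and markers were written from general knowledge, and the members and lists were chosen with earlier results of these data known. They are described by counts and medians, with no test. Genes at or above the median gene mean (4.58) were named where the unadjusted p was under 0.05 and the groups did not overlap, up to 15 on each side by size of the difference, passing over predicted genes, clone names, sensory receptors and small RNAs. Also named were up to 4 members of each list by p, and a set of fixed genes. Other members were chosen after their values were seen. Background is the 95th percentile of 1015 olfactory receptor genes. Alternatives were other variance priors, array weights, the compared groups alone, a signal filter, 3 normalizations, other choices of clusters, a looser threshold, a replicate block and each array left out.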

Additional observations from a re-analysis of the deposited data

How the results depend on the processing

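The count of 0 genes past the threshold became 1 with a robust variance prior (Chad), 4 with array weights (Arntl, Ccl17, Chad and Dbp, adjusted p 0.0208 to 0.0451) and 3 with the compared groups fitted alone (Chad, Ciart and Dbp, 0.0467). It ran from 0 to 3 with single arrays left out. The 3 passed without either control array, and 1, Mmp13, without the second suspension array. It was 1 at an adjusted p under 0.10, and 0 with the other normalizations, cluster choices and the signal filter. At an unadjusted p under 0.05, the higher and lower counts were 484 and 497 with array weights, 481 and 463 with the groups alone, 138 and 166 with the signal filter and 538 and 681 over every cluster. With single arrays left out they ran from 236 to 484 and from 167 to 468. The genes without overlap, higher and lower, were 1360 and 1920 with the filter and 5363 and 6165 over every cluster. With an array left out, where 1 array faces 2, they ran from 5992 to 7058 and from 6454 to 7655.

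The replicate numbers did not pair the samples (correlation of same-numbered deviations -0.0157 between the groups compared, -0.162 and 0.0168 with control). With a replicate block 0 genes passed, and 288 lay higher and 244 lower at the unadjusted p.

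The median of the clock activators was -0.353 with the signal filter and -0.247 after cyclic loess. With single arrays left out, the median of the clock outputs ran from 0.424 to 0.471, that of the embryonic list from 0.028 to 0.60 and that of the endothelial list from -0.282 to -0.155. Of 117 genes examined, 99 kept their direction in every setting tried. Where the groups do not overlap, leaving out 1 array cannot turn the sign. Many of the 117 were named because their groups do not overlap, so for those the fits with an array left out add nothing on direction. The sign of 18 turned with 1 array left out: Clock (-0.25 to 0.0029), Bhlhe40 (-0.02 to 0.13), Cry2 (-0.12 to 0.16), Nr1d1 (-0.15 to 0.12), Kera (-0.03 to 0.42), Timp1 (-2.22 to 0.71), Fn1 (-1.93 to 1.00), Col1a1 (-1.11 to 0.68), Postn (-1.12 to 1.34), Mmp14 (-1.81 to 0.09), Mmp9 (-2.33 to 0.31), Mymk (-0.12 to 1.51), Myog (-0.0035 to 1.22), Ankrd1 (-0.58 to 1.68), Mustn1 (-0.11 to 1.46), Myl6b (-0.04 to 1.70), Cish (-1.91 to 1.44) and Socs2 (-0.37 to 1.02). The cause of these changes was not tested, apart from the number of genes or arrays that a setting removes. Differences the size of their standard error, and many larger ones, cannot be told from 0 with 2 arrays in each group. Tef, for one, at 0.38 ± 0.17 had an unadjusted limma p of 0.0548. In the main fit 0 genes passed the adjusted threshold. Genes near background are compressed.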

Other observations

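Genes of small nucleolar RNAs, which guide the modification of ribosomal RNA and lie mostly in introns of host genes, lay higher as a class. This class was chosen after its values were seen. Of 51 such genes, 27 (52.9%) had both electroacupuncture arrays above both suspension arrays and 5 both below. Over all genes these shares were 15.4% and 17.1%. The 51 had a median difference of 0.33, and 9 had an unadjusted p under 0.05, 7 of them higher. At that p 1.56% of all genes lay higher and 1.50% lower. Their mean signal was 5.31 and 5.42 on the suspension arrays and 5.59 and 5.77 on the electroacupuncture arrays. Snord33 (1.14), Snord42a (1.07) and Snord73b were at least 2-fold higher. The array measures such short RNAs with few probes, and the recovery of small RNAs in each extract was not tested.

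The electroacupuncture arrays differed from each other in Cish and Socs2, genes of cytokine signalling. So did the control arrays, by 2.7 for Cish and 1.11 for Socs2. Cish, a feedback inhibitor induced through STAT5, read 3.87 and 7.21 on them against 5.72 and 5.83 under suspension. Socs2, another target of that pathway, read 5.96 and 7.36 against 6.49 and 6.18. For both genes the first electroacupuncture array lay below and the second above the suspension arrays, so that their mean differences (-0.23 ± 1.03 and 0.33 ± 0.45) describe neither array. The light chain gene Myl6b was high on the second array alone (6.93, with 5.13 to 5.33 on the others), whereas Mymk, Myog, Ankrd1 and Mustn1 were high on the first.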
